A study of Danio rerio with 6 samples.

Results

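Notch pathway genes were followed in the spinal cord of adult zebrafish after transection. They run from the ligands and receptors through modifiers to her, hes and hey genes, some of which Notch can activate. The latter are called targets as a class, and which of them respond to Notch in this tissue was not tested. The 41 listed genes were looked up by symbol in the count files, and 37 of them were found there. Of these, 35 had 10 or more reads in 3 or more libraries, out of 12857 gene rows that did so, and the same 35 were among the 12804 genes tested. They were 8 ligands, 4 receptors, 13 modifiers and 10 her, hes or hey genes. The symbols her4.1, maml1, maml2 and maml3 were not analysed here. mib2, an E3 ubiquitin ligase gene, was listed at 0 reads in every library. her2 had 25, 8 and 4 reads in sham replicates 1, 2 and 3 and 9, 5 and 6 reads in injured replicates 1, 2 and 3, so it missed the minimum.

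The libraries were made from bulk RNA, 3 from sham fish and 3 from injured fish. Injured fish had a complete transection of the cord and were sampled 1 week post injury (1 wpi). Sham fish came from the same clutches and had surgery down to the cord without a lesion of it, and their treatment label calls them uninjured. The fish were adults of the Ekkwill strain of either sex, and no transgene or mutation is given for these samples. Cord tissue reaching 2 mm to either side of the lesion, rostral and caudal, was taken. The number of fish behind each library is not stated in the sources used here, so the p-values reflect variation between these libraries, which may be technical in part.

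Notch receptors are membrane proteins that are cut when a Delta or Jagged ligand on a neighboring cell binds them. The last cut, by gamma-secretase, frees an intracellular part that enters the nucleus, joins the DNA-binding protein Rbpj and a Mastermind co-activator, and switches on genes of the her, hes and hey families. Many of these encode repressors of proneural genes, so the pathway is known for keeping radial glia as progenitors and for lateral inhibition, in which a cell that becomes a neuron carries Delta and keeps its neighbors from doing so. In vessels, Dll4, Notch and Hey2 act in arterial specification.

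Reads counted in genes ranged from 19310220 to 30147448 per library. Levels are given as CPM, the reads of a gene relative to the TMM-scaled size of its library. Sham replicate 1 stood apart from the other sham libraries. Its summed level of 14 cell cycle genes was 1014 CPM, against 308 and 286 CPM in sham replicates 2 and 3 and 749 to 777 CPM in injured libraries. Its summed level of 11 oocyte genes was 401 CPM, against at most 25.2 CPM elsewhere. Reads with no feature took 43.8% of its file's total, against 50.9% and 51.3% in sham replicates 2 and 3 and 41.2% to 42.1% in injured libraries, and the part of this share in the results was not tested. Calls that change when this library is dropped are given both ways. The 13 genes found of ependymo-radial glia (ERGs), the progenitors that line the central canal, summed to 17513 to 23353 CPM in sham and 24564 to 25490 CPM in injured cords, and none of them was at 0 reads (4 of 13 rose). Genes of immature neurons summed to 4035 to 4784 CPM in sham and 7103 to 7414 CPM in injured cords (5 of 13 tested rose), and genes of microglia and macrophages to 3154 to 5350 CPM in sham and 9841 to 10872 CPM in injured cords (2 of 9 rose). Single genes held much of these sums. In the ERG list, gfap went from 8354 to 10608 CPM in the group means and did not pass (edgeR adjusted p = 0.176). The ERG genes cx43 and hepacam2 had negative log2 fold changes (-0.21 and -0.84), and neither passed. In the group means, tubb5 of the immature neuron list went from 1266 to 3766 CPM. In the microglia list, apoeb went from 2061 to 8055 CPM. The immature neuron genes elavl3, elavl4 and neurod1 had negative log2 fold changes (-0.11, -0.42 and -0.56), and none of these passed. Genes of mature neurons summed to 16247 to 29257 CPM in sham and 12176 to 12713 CPM in injured cords (3 of 13 fell). Much of this sum was nefma, which went from 10382 to 5935 CPM in the group means and did not pass in edgeR. The mature neuron genes stmn2b and slc17a6b had positive log2 fold changes (0.44 and 0.18), and neither passed in edgeR. Skeletal muscle genes summed to 20088, 8558 and 6254 CPM in sham replicates 1, 2 and 3, and none of 14 passed the test. In injured replicates 1, 2 and 3 they summed to 40569, 12134 and 16117 CPM. Injured replicate 1 thus stood apart from the other injured libraries in these genes, and their part in the results was not tested.

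At 1 wpi, 9 of the 35 Notch pathway genes rose and none fell, by edgeR's quasi-likelihood test with p-values adjusted over every gene tested and a threshold of 0.05. They were the ligand genes dla, dlc, dld and jag1b, the receptor gene notch1a, the fringe gene lfng, the gamma-secretase gene ncstn, the feedback gene nrarpa and the target gene hey2. Rises made up 25.7% of the Notch genes and 5.81% of the 12804 genes tested, and falls made up 4.83% of the latter. The Notch genes had been listed with earlier results of these data known, so this contrast is only a description. An unadjusted p under 0.05 was found for 22 of the 35, against 38.2% of genes tested. The log2 fold changes had a median of 0.37 for the 35 genes and -0.029 for all genes tested. By class, the calls were 4 of 8 ligands, 1 of 4 receptors, 3 of 13 modifiers and 1 of 10 her, hes and hey genes, and the class medians were 0.54, 0.54, 0.37 and -0.047. Differences between classes were not tested. Every injured library lay above every sham library for 19 of the 35 genes and below for 1, against 22.9% and 21.8% of genes tested. Those 19 were 6 ligands, all 4 receptors, 7 modifiers and 2 targets.

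**Figure D1:**
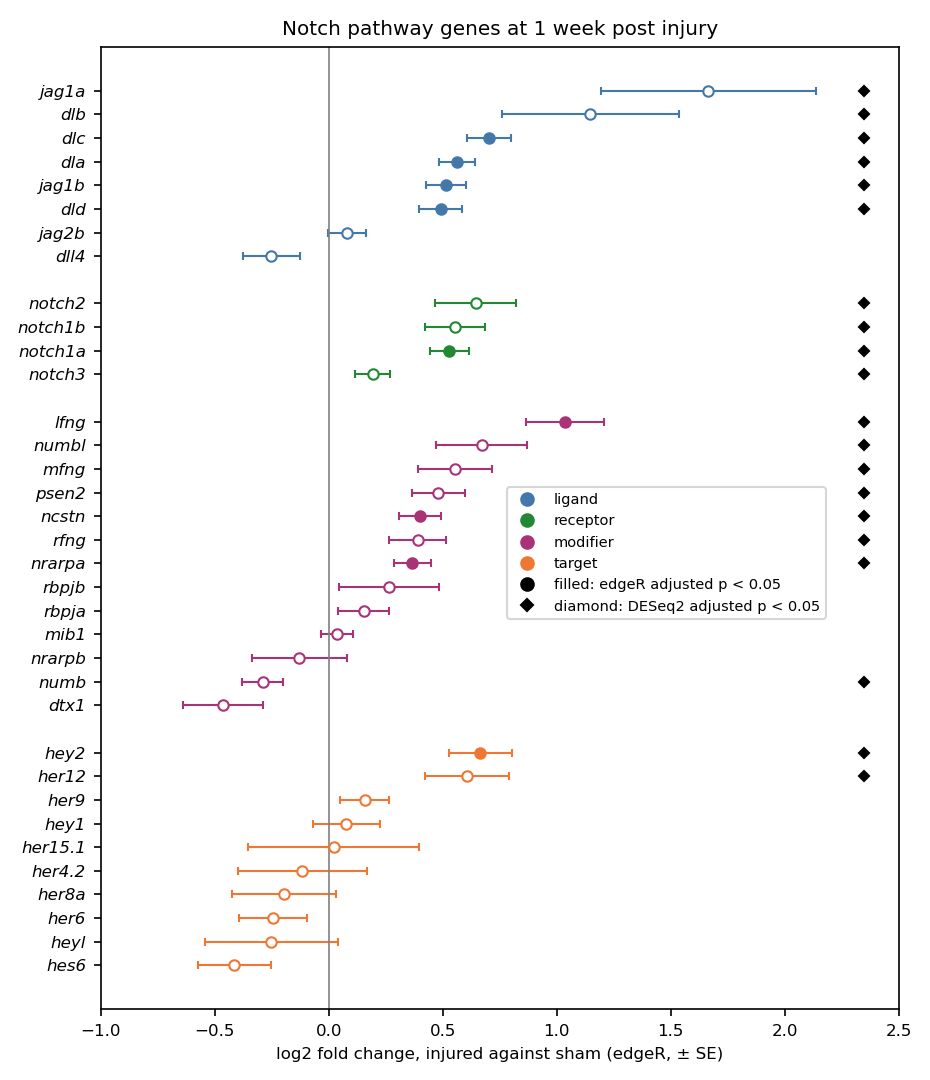
Log2 fold change of injured against sham cords (x axis, edgeR, bars are 1 SE) for the 35 tested Notch pathway genes, grouped by class. Filled points passed edgeR's threshold (9 genes, all higher), diamonds at the right mark genes called by DESeq2, and the her, hes and hey genes lie on either side of 0 around a median of -0.047.

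The number of calls depended on single libraries. Without sham replicate 1, edgeR called 21 of the 35 higher and 5 lower, against 29% and 28.2% of genes tested, and DESeq2 called 20 and 5, against 25.8% and 24%. When sham replicate 2 or 3 or any injured library was dropped instead, edgeR made 0 calls among the 35 and 0% among all genes, with 15 to 18 of the 35 at an unadjusted p under 0.05. In the same 5 settings DESeq2 called 9 to 14 of the genes higher, among them 8 or 9 of the 9 above, where 7.46%, 7.61%, 7.03%, 6.26% and 6.48% of all genes were higher. With all 6 libraries DESeq2 called 19 higher and 1 lower, against 13.5% and 13.4%, and limma-voom with sample weights 20 and 6, against 29.2% and 29.7%. Of the genes that DESeq2 called beyond the 9, jag1a alone was called by DESeq2 in all 5 of those settings. There notch3, dlb, rfng, her12, numb and numbl were called in none. In counts simulated with dispersions estimated by edgeR (described below), 66 of 225 DESeq2 calls were false, against 5 of 142 for edgeR. These rates may not hold for the real counts, since no simulated library stood apart as sham replicate 1 did. Sham libraries varied more than injured ones, with a median coefficient of variation over the 35 genes of 15.7% against 5.34%, and of 16.1% against 5.70% over all genes tested.

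Of the 8 ligand genes, 4 rose. dla, a Delta ligand gene of the neural lineage, measured 20.2, 22.0 and 21.4 CPM in sham and 32.0, 30.5 and 31.4 CPM in injured libraries. The libraries of each group lay close together and the groups lay far apart. Its group means were 21.2 ± 0.899 and 31.3 ± 0.735 CPM (SD, n = 3 each), and it rose (log2 fold change 0.56, SE 0.0794, edgeR adjusted p = 0.0294). dlc, another Delta ligand gene, measured 13.04, 14.8 and 13.2 CPM in sham and 22.5, 23.2 and 21.1 CPM in injured libraries. It also rose (log2 fold change 0.70, SE 0.0965, edgeR adjusted p = 0.0294), with no overlap between the groups. dld, a Delta ligand gene known from neurogenesis and somite formation, measured 16.8, 19.5 and 19.7 CPM in sham and 25.7, 26.9 and 26.2 CPM in injured libraries, and rose (log2 fold change 0.49, SE 0.0955, edgeR adjusted p = 0.0402). For these 3 genes sham replicate 1 was the lowest sham library, on the far side from the injured libraries. Each was also called without it (log2 fold changes 0.53, 0.67 and 0.42, edgeR adjusted p = 0.000674, 0.00113 and 0.00159). The summed level of the immature neuron genes, which took in the large rise of tubb5, had the same order of groups. The part of these genes in the Delta values was not tested.

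jag1b, a Jagged ligand gene, measured 38.1, 35.2 and 32.8 CPM in sham and 47.4, 51.9 and 52.3 CPM in injured libraries, without overlap, and rose (log2 fold change 0.51, SE 0.0877, edgeR adjusted p = 0.0346). Its paralog jag1a had the largest log2 fold change of the 35 genes in edgeR and did not pass. jag1a measured 16.6, 5.29 and 5.33 CPM in sham and 29.0, 28.4 and 28.9 CPM in injured libraries. Sham replicates 2 and 3 were low and nearly equal, the injured libraries were high and nearly equal, and sham replicate 1 lay between them. The fold was 3.17 (log2 fold change 1.67, SE 0.470, edgeR adjusted p = 0.0654), and without sham replicate 1 jag1a passed (log2 fold change 2.44, edgeR adjusted p = 3.60e-05). dlb, a Delta ligand gene, measured 13.4, 4.92 and 5.62 CPM in sham and 17.7, 17.7 and 17.5 CPM in injured libraries, again with sham replicate 1 between the other sham libraries and the injured ones. It did not pass with all libraries (log2 fold change 1.15, SE 0.387, edgeR adjusted p = 0.0899) and passed without that library (log2 fold change 1.74, edgeR adjusted p = 9.63e-05). DESeq2 on all libraries called both (adjusted p = 0.00318 and 0.0222). The high cell cycle and oocyte levels belonged to the same sham library, and their part in these values was not tested.

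The groups of the other 2 ligand genes overlapped. jag2b, a Jagged ligand gene, measured 65.0, 61.8 and 70.3 CPM in sham and 74.5, 68.4 and 65.3 CPM in injured libraries (log2 fold change 0.079, SE 0.0823, edgeR adjusted p = 0.500). dll4, the Delta ligand gene of arterial and sprouting endothelium, measured 13.2, 15.19 and 16.7 CPM in sham and 12.3, 11.9 and 13.7 CPM in injured libraries, and was the only ligand gene with a negative value (log2 fold change -0.25, SE 0.126, edgeR adjusted p = 0.191). It passed in the fits without sham replicate 1 (edgeR adjusted p = 0.0258) and with sample weights. The endothelial genes summed to 342 to 385 CPM in sham and 364 to 369.6 CPM in injured cords, of which pecam1 rose and kdrl and sox7 fell among 13 tested. In whole tissue, fewer cells of a type and less RNA per cell cannot be told apart.

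**Figure D2:**
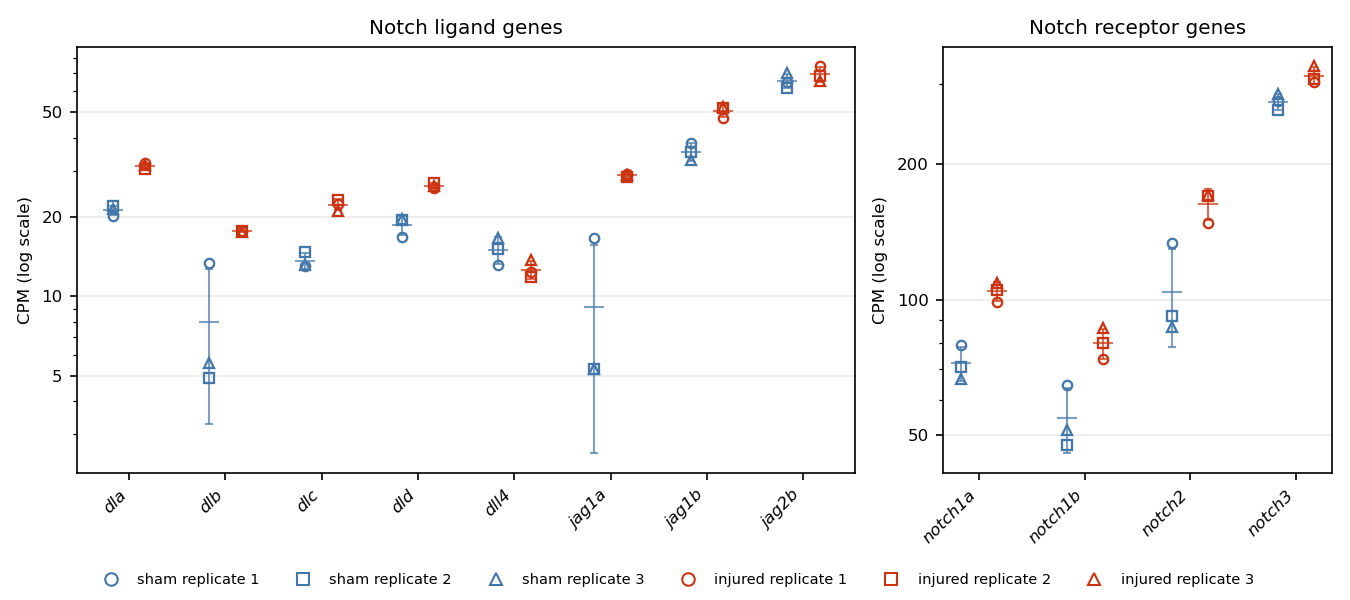
CPM (y axis, log scale) of 8 ligand genes and 4 receptor genes in each library, with sham and injured libraries in separate colours and the mean ± SD (n = 3) as bars. Sham replicate 1 lies between the groups for dlb and jag1a and not for dla, dlc and dld, and the groups of jag2b and dll4 overlap.

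All 4 receptor genes had injured levels above every sham level, as did 22.9% of all genes tested, and notch1a rose. notch1a, whose product acts in neural progenitors among other cells, measured 79.2, 70.8 and 66.7 CPM in sham and 98.8, 105 and 109 CPM in injured libraries. Its group means were 72.2 ± 6.38 and 104 ± 5.06 CPM (SD, n = 3 each) (log2 fold change 0.53, SE 0.0861, edgeR adjusted p = 0.0345). notch1b, its paralog, measured 64.7, 47.6 and 51.5 CPM in sham and 74.0, 80.0 and 86.3 CPM in injured libraries and missed the threshold narrowly (log2 fold change 0.55, SE 0.131, edgeR adjusted p = 0.05004). In the GRCz12tu annotation of RefSeq, notch1b overlaps fam163b. notch2 measured 133, 92.1 and 86.7 CPM in sham and 148, 169.8 and 170.4 CPM in injured libraries (log2 fold change 0.65, SE 0.177, edgeR adjusted p = 0.0626). The gap between its groups was small, from 133 CPM in sham replicate 1 to 148 CPM in injured replicate 1. notch3, a receptor gene of mural cells and of radial glia, measured 275, 263 and 285 CPM in sham and 303, 309 and 329 CPM in injured libraries, and had the smallest value of the 4 (log2 fold change 0.19, SE 0.0776, edgeR adjusted p = 0.126). The mural cell genes found summed to 568 to 809.5 CPM in sham and 592 to 637 CPM in injured cords, with pdgfrb listed at 0 reads. Much of this sum was rgs5a, which went from 498 to 338 CPM in the group means (log2 fold change -0.56). The other mural cell genes tested had positive log2 fold changes. The median of the 7 tested was 0.26, and none of them passed. Without sham replicate 1 all 4 receptor genes passed (log2 fold changes 0.60, 0.69, 0.86 and 0.20 in the order above), where 29% of all genes tested were higher. With DESeq2 on all libraries they also passed (adjusted p from 2.32e-05 for notch1a to 0.0294 for notch3), where 13.5% of all genes were higher.

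Among the modifiers, all 3 fringe genes had injured levels above every sham level, as did 22.9% of all genes tested. Fringe enzymes add a sugar to Notch and change how it responds to Delta and to Jagged ligands. lfng measured 189.6, 129 and 126 CPM in sham and 304, 314 and 295 CPM in injured libraries. Its groups were far apart, with means of 148 ± 35.8 and 304 ± 9.38 CPM (SD, n = 3 each), and it rose with a fold of 2.05 (log2 fold change 1.04, SE 0.172, edgeR adjusted p = 0.0345), the largest among the 9 called genes. Without sham replicate 1 its log2 fold change was 1.25 (edgeR adjusted p = 6.29e-05). mfng measured 23.1, 16.5 and 16.7 CPM in sham and 24.6, 28.9 and 29.2 CPM in injured libraries (log2 fold change 0.55, SE 0.163, edgeR adjusted p = 0.0704), and rfng measured 26.4, 20.9 and 19.9 CPM in sham and 29.0, 30.1 and 28.9 CPM in injured libraries (log2 fold change 0.39, SE 0.127, edgeR adjusted p = 0.0832). For both, sham replicate 1 was the highest sham library and the gap to the injured libraries was narrow. Both passed without it (edgeR adjusted p = 0.00132 and 0.000830) and with DESeq2 on all libraries (adjusted p = 0.0202 and 0.0391).

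Of the gamma-secretase genes, ncstn rose and psen2 did not pass. ncstn encodes nicastrin, the subunit that receives the substrate, and measured 32.8, 28.7 and 32.4 CPM in sham and 38.5, 42.1 and 43.3 CPM in injured libraries (log2 fold change 0.40, SE 0.0925, edgeR adjusted p = 0.0474). With upper-quartile scaling it missed the threshold (edgeR adjusted p = 0.0504). psen2 encodes a catalytic subunit and measured 46.6, 37.1 and 37.9 CPM in sham and 52.3, 56.6 and 60.8 CPM in injured libraries (log2 fold change 0.48, SE 0.115, edgeR adjusted p = 0.0506), without overlap of the groups. It passed without sham replicate 1 (log2 fold change 0.59, edgeR adjusted p = 0.00127) and with DESeq2 on all libraries (adjusted p = 0.00523). In GRCz12tu psen2 and jag1a lie within 5 protein-coding genes of each other.

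nrarpa and nrarpb encode small ankyrin repeat proteins that are induced by Notch and limit its signal. nrarpa measured 31.2, 33.2 and 29.97 CPM in sham and 40.4, 38.8 and 42.6 CPM in injured libraries, and rose (log2 fold change 0.37, SE 0.0815, edgeR adjusted p = 0.0458). Its log2 fold change was nearly the same without sham replicate 1, 0.36 (edgeR adjusted p = 0.00698). nrarpb measured 15.3, 27.0 and 21.8 CPM in sham and 20.9, 18.1 and 19.6 CPM in injured libraries, so its injured values lay inside the sham range (log2 fold change -0.13, SE 0.209, edgeR adjusted p = 0.669).

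The genes of receptor trafficking and turnover gave values in both directions, and none passed with all libraries in edgeR. numb, whose product inhibits Notch through endocytosis, was the only gene of the 35 with every injured library below every sham library. It measured 20.7, 22.9 and 22.97 CPM in sham and 17.7, 19.1 and 17.7 CPM in injured libraries (log2 fold change -0.29, SE 0.0900, edgeR adjusted p = 0.0768), and DESeq2 called it lower (adjusted p = 0.0424). The related numbl measured 25.8, 15.5 and 17.7 CPM in sham and 29.7, 30.5 and 33.8 CPM in injured libraries, with every injured library above every sham library (log2 fold change 0.67, SE 0.199, edgeR adjusted p = 0.0708), and DESeq2 called it higher (adjusted p = 0.0161). With sham replicate 1 left out, edgeR called numb lower and numbl higher (log2 fold changes -0.34 and 0.92, adjusted p = 0.00658 and 0.000575). dtx1, an E3 ubiquitin ligase gene of the Deltex family, measured 55.9, 83.2 and 89.2 CPM in sham and 54.4, 57.1 and 54.0 CPM in injured libraries (log2 fold change -0.47, SE 0.175, edgeR adjusted p = 0.111). Sham replicate 1 of dtx1 lay among the injured libraries, and without it the log2 fold change was -0.64 (edgeR adjusted p = 0.000310). The summed mature neuron genes, which took in the high level of nefma, had a like order. The sum was 16247 CPM in sham replicate 1 and 25850 and 29257 CPM in the other sham libraries. The part of these genes in the dtx1 values was not tested.

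The remaining modifiers had overlapping groups. rbpja and rbpjb encode the DNA-binding partner of the cut receptor and had log2 fold changes of 0.15 and 0.26 (edgeR adjusted p = 0.348 and 0.405). Without sham replicate 1 both passed (0.24 and 0.53, edgeR adjusted p = 0.0492 and 0.0121). In GRCz12tu rbpjb overlaps stim2b, and their reads may not be fully separated. mib1, the ligase gene for ligand endocytosis in signal-sending cells, measured 90.3 to 100.1 CPM in sham and 94.2 to 101 CPM in injured libraries (log2 fold change 0.036, SE 0.0686, edgeR adjusted p = 0.718).

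**Figure D3:**
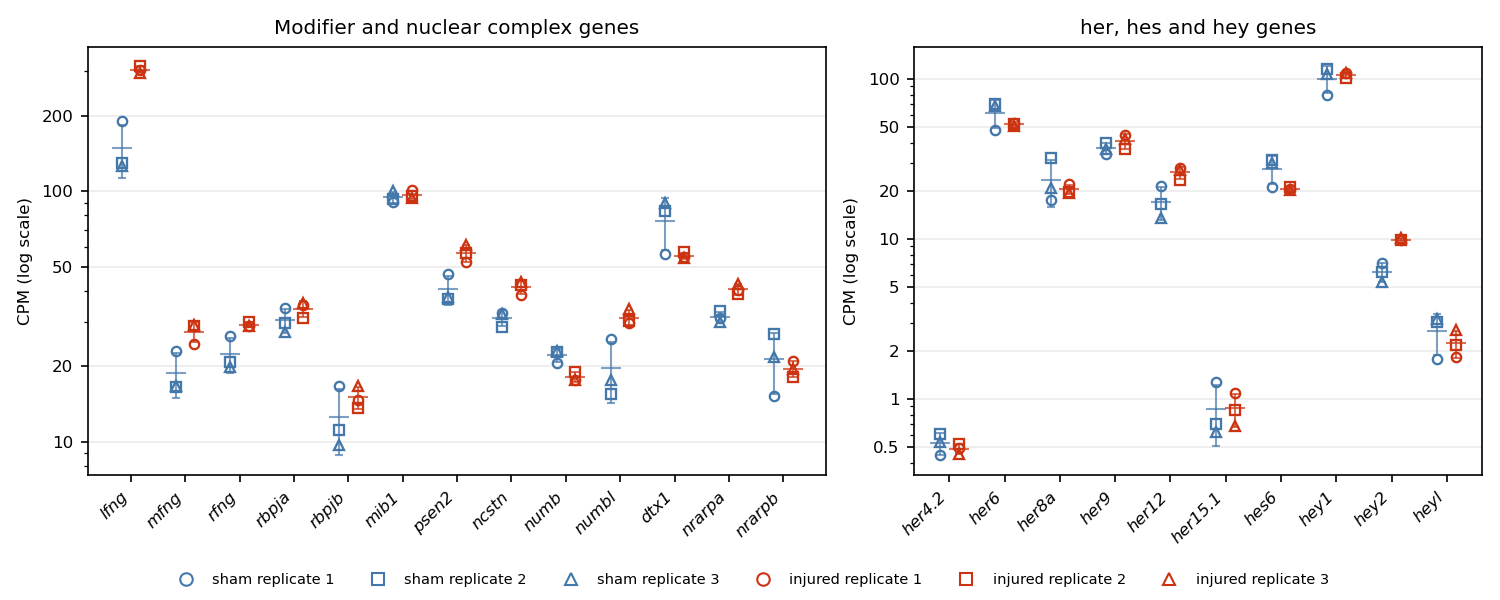
CPM (y axis, log scale) of 13 modifier genes and 10 her, hes and hey genes in each library, with sham and injured libraries in separate colours and the mean ± SD (n = 3) as bars. lfng stands clear of its sham values and numb lies below them, and hey2 and her12 are the 2 her, hes and hey genes with injured values above all sham values.

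The her, hes and hey genes encode basic helix-loop-helix repressors, and hey2 alone among the 10 rose in edgeR with all libraries. hey2 measured 7.11, 6.27 and 5.41 CPM in sham and 9.89, 9.81 and 10.1 CPM in injured libraries, without overlap (log2 fold change 0.67, SE 0.139, edgeR adjusted p = 0.0429). Without sham replicate 1 its log2 fold change was 0.77 (edgeR adjusted p = 0.00173). In GRCz12tu hey2 overlaps hddc2 and esco2, and since no source used here gives the strand setting of the counting, their reads may not be fully separated. her12 also had separate groups, 21.5, 16.5 and 13.5 CPM in sham and 27.7, 23.6 and 27.2 CPM in injured libraries (log2 fold change 0.61, SE 0.183, edgeR adjusted p = 0.0729). DESeq2 called it (adjusted p = 0.0209), as did edgeR without sham replicate 1 (log2 fold change 0.80, adjusted p = 0.00217).

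hes6 and her6 passed only in fits that dropped or down-weighted libraries. hes6, whose product antagonises other Hes proteins and favors neuronal differentiation in mammals, measured 21.1, 31.4 and 29.97 CPM in sham and 20.5, 21.2 and 20.2 CPM in injured libraries (log2 fold change -0.41, SE 0.160, edgeR adjusted p = 0.116). her6, a Hes1-type gene of neural progenitors, measured 47.8, 69.4 and 68.0 CPM in sham and 53.4, 52.5 and 50.6 CPM in injured libraries (log2 fold change -0.24, SE 0.150, edgeR adjusted p = 0.271). In both genes sham replicates 2 and 3 were high and sham replicate 1 was near or below the injured libraries. Without that library their log2 fold changes were -0.57 and -0.40 (edgeR adjusted p = 0.000574 and 0.00110). hes6 overlaps itm2cb in GRCz12tu.

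The other 6 targets had overlapping groups, with log2 fold changes from -0.25 for heyl to 0.16 for her9. hey1, a gene related to hey2, measured 79.0, 116 and 107 CPM in sham and 109, 101 and 109 CPM in injured libraries (log2 fold change 0.077, SE 0.147, edgeR adjusted p = 0.717), and its value changed sign without sham replicate 1 (-0.069). her9 measured 34.0 to 39.7 CPM in sham and 36.3 to 44.7 CPM in injured libraries, and her8a 17.4 to 32.0 CPM in sham and 19.5 to 22.1 CPM in injured libraries (edgeR adjusted p = 0.325 and 0.552). heyl measured 1.78 to 3.16 CPM in sham and 1.82 to 2.69 CPM in injured libraries (edgeR adjusted p = 0.547). her4.2 and her15.1, of the Hes5-like group that responds to Notch in zebrafish radial glia, had only 9 to 14 and 15 to 31 reads per library. Their values were imprecise, at -0.12 (SE 0.282) and 0.022 (SE 0.375). Whether a change of the size measured for hey2 could be found at these counts was not tested. In GRCz12tu her12 and her4.1 to her4.5 stand in a cluster, her4.1 and her4.2 overlap, and her2, her15.1 and her15.2 are neighbors. There her2 and her15.1 overlap flnba, and heyl overlaps hpca and zbtb8b. Only alignments of high mapping quality were counted, so reads of near-identical copies may be missing, and the her4.2 and her15.1 counts are uncertain.

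A further 65 genes of the pathway, listed from general knowledge, were read from the same fit. Of these, 41 were found and 35 tested, of which 4 rose, 2 fell and 29 did not pass, with a median log2 fold change of 0.14. Over all genes tested 5.81% rose and 4.83% fell. her13, a further her gene, rose from 8.83 to 21.4 CPM in the group means (log2 fold change 1.28, SE 0.212, edgeR adjusted p = 0.0345). furinb, of a convertase family that cuts Notch during maturation in mammals, rose from 42.7 to 69.0 CPM (log2 fold change 0.69, SE 0.113, edgeR adjusted p = 0.0345). adam10b, of the protease family that cuts ligand-bound Notch, rose from 51.7 to 74.1 CPM (log2 fold change 0.52, SE 0.106, edgeR adjusted p = 0.0424), and cntn1a, a contactin gene, from 91.0 to 122 CPM (log2 fold change 0.43, SE 0.101, edgeR adjusted p = 0.04998). dner, a neuronal gene for a membrane protein with Egf-like repeats, fell from 113 to 64.4 CPM (log2 fold change -0.81, SE 0.128, edgeR adjusted p = 0.0332), and itcha, an E3 ubiquitin ligase gene, from 44.6 to 34.6 CPM (log2 fold change -0.37, SE 0.0834, edgeR adjusted p = 0.0465). Among the next by adjusted p were ctbp2a, a co-repressor gene, and cntn1b, a contactin gene, with log2 fold changes of -0.47 and -0.83 (edgeR adjusted p = 0.0524 and 0.0644). Without sham replicate 1, 16 of these genes were higher and 6 lower, against 29% and 28.2% of all genes.

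Ratios of reads between related genes within a library do not depend on how libraries are scaled. For 8 such pairs, chosen after the values had been seen, they were compared between groups with a 2-sided exact permutation test, which cannot go below p = 0.1 with 3 libraries against 3, so none could pass. The log2 ratio of jag1a to jag1b was -1.20, -2.73 and -2.62 in sham and -0.71, -0.87 and -0.86 in injured libraries, a difference of 1.37 between the means. For lfng to rfng it was 2.85, 2.63 and 2.67 in sham and 3.39, 3.38 and 3.35 in injured libraries, a difference of 0.66. For numbl to numb it was 0.32, -0.56 and -0.38 in sham and 0.75, 0.68 and 0.94 in injured libraries, a difference of 0.99. These groups were separate. The ratio of hey2 to hey1 was -3.47, -4.21 and -4.31 in sham and -3.46, -3.36 and -3.43 in injured libraries, a difference of 0.58, and its groups were separated narrowly. For each of the 4 the exact p was 0.1 (0.2 after adjustment over 8 pairs), the value that any separate groups give. No share over all gene pairs was worked out. Among single genes tested, 44.7% had groups that did not overlap, so separate groups were common in these libraries. The ratios of notch1a to notch1b, mfng to rfng, rbpja to rbpjb and nrarpa to nrarpb overlapped between groups, with differences of -0.031, 0.17, -0.14 and 0.46 (exact p from 0.2 to 0.9).

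**Figure D4:**
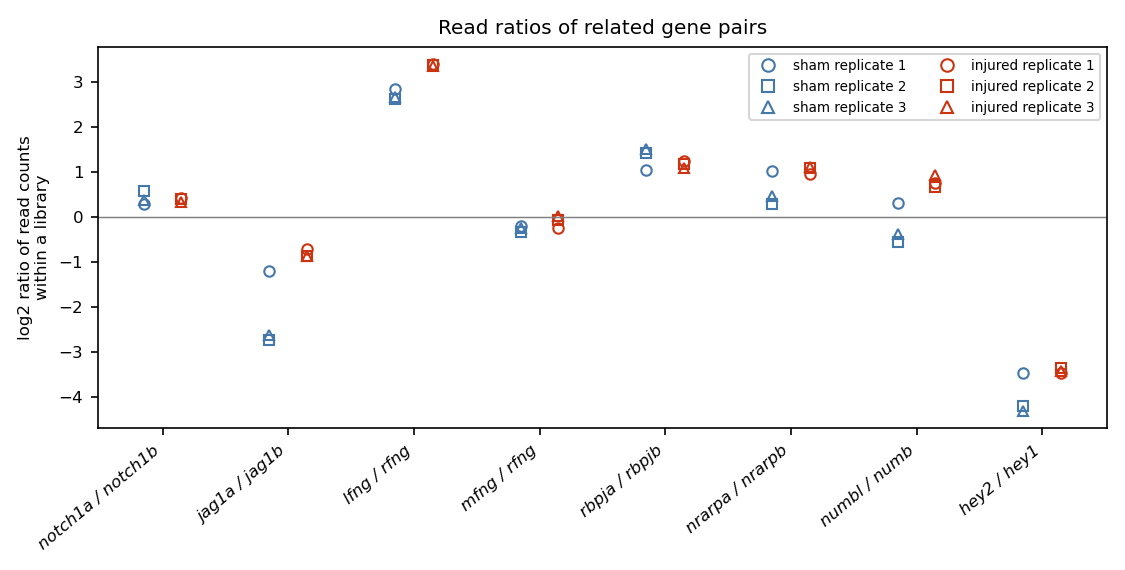
Log2 ratio of read counts of related genes within each library for 8 pairs, with sham and injured libraries in separate colours. The groups are separate for jag1a to jag1b, lfng to rfng, numbl to numb and, narrowly, hey2 to hey1. The pairs were chosen after the values had been seen, and none could pass the exact test.

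The place of sham replicate 1 between the groups differed from gene to gene. Its log2 CPM was placed on a scale where 0 stands for the average of sham replicates 2 and 3 and 1 for that of the injured libraries. It was -0.19, -0.15 and -0.52 for dla, dlc and dld and -0.045 for nrarpa, below 0 and so away from the injured libraries. For ncstn, jag1b, notch1a, hey2 and lfng it was 0.24 to 0.46, nearer to the other sham libraries. For notch2, jag1a, numbl and dlb it was 0.67 to 0.77, and for hes6, dtx1 and her6 0.94 to 1.32, nearer to the injured libraries. The median over the 26 genes called without that library was 0.61. These genes were picked by the fit that leaves it out, and no like value is given for all genes. hey1 was the only gene of the 35 whose edgeR log2 fold change had another sign without it.

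**Figure D5:**
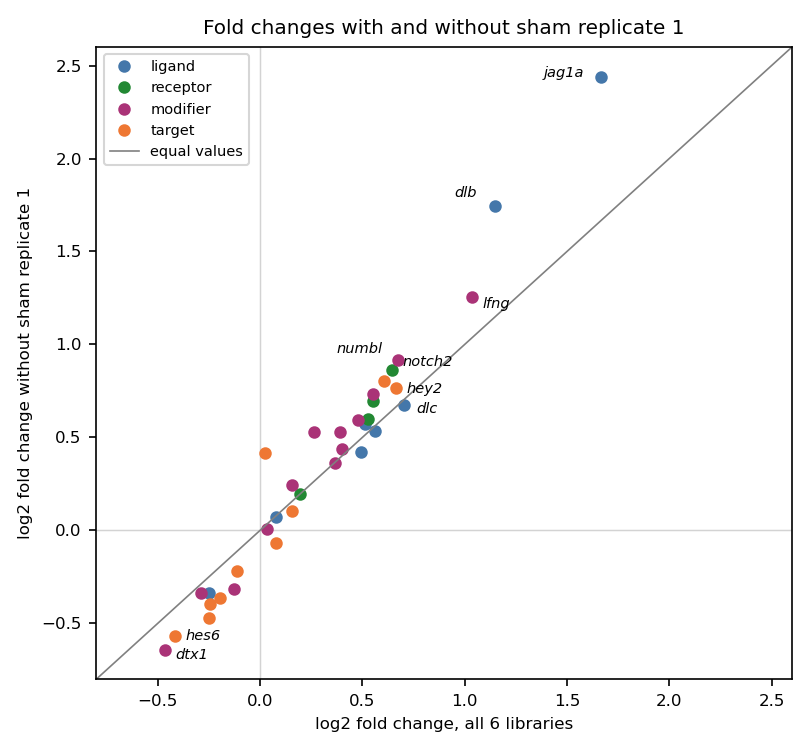
Log2 fold change of each of the 35 genes with all 6 libraries (x axis) against that without sham replicate 1 (y axis). jag1a and dlb show the largest rises in value without that library, from 1.67 to 2.44 and from 1.15 to 1.74, while dla, dlc and dld move little.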

How the data were processed

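Each deposited file holds raw counts, the reads of each gene symbol in 1 library. The authors mapped 50 bp single-end reads to danRer10 with TopHat2, filtered alignments by SAMtools 1.3.1 at a mapping quality of 30 and counted reads with HTSeq 0.6.0. Trim Galore, TopHat2 2.2.1 and DESeq2 1.26.0 stand in the submitters' notes as well, while the paper's methods give another version of TopHat2. No source used here gives the annotation or strand setting. Rows that name no gene were left out (reads with no feature took 41.2% to 51.3% of a file's total).

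Low genes were removed by filterByExpr of edgeR 4.0.16 (R 4.3.3) at a minimum count of 10 and a minimum total of 15, libraries were TMM-scaled, and injury was the only model term. Benjamini-Hochberg adjustment covered all 12804 genes. SEs were derived from each log2 fold change and its F statistic. Within groups, every pair of libraries differed beyond counting noise (chi-square over its degrees of freedom 11.8 to 167). The value was 130 and 167 for sham replicate 1 against sham replicates 2 and 3, and 17.2 between those. It was 79.2 and 54.1 for injured replicate 1 against injured replicates 2 and 3, and 11.8 between those. In simulated counts of this comparison (12804 genes), edgeR found 50% of 100 genes changed 2-fold and 87% of 100 changed 4-fold, and 5 of its 142 calls were false. For DESeq2 these were 68%, 91% and 66 of 225. Apart from depth and the set changes, all simulated libraries of a gene shared the same mean and dispersion, and the dispersions were those estimated by edgeR. No simulated library stood apart as sham replicate 1 did, and sham libraries had no larger spread, so these rates may not hold for the real counts.

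Members, gene lists and the choice of genes to name (every member, called genes of the other pathway list and the next 4) were chosen with earlier results of these data known. Of those next 4, 2 are not reported here. Alternatives were RLE and upper-quartile scaling, DESeq2 1.42.0, limma-voom (limma 3.58.1) weighted by sample, 10 reads in 3 libraries as the filter or none, a replicate block, and edgeR and DESeq2 with each library left out. Gene neighbors came from the RefSeq table of GRCz12tu, another build than that of the files, where all 41 symbols matched. No promoter or protein sequence was used here, so the motif and protein features planned were not analysed.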

Additional observations from a re-analysis of the deposited data

How the results depend on the processing

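Counts of calls depended on the tool and on single libraries, and the cause was not tested. edgeR called 9 of the 35 genes higher with RLE scaling, no filter and the filter of 10 reads in 3 libraries. They were the same 9 genes each time, and upper-quartile scaling gave 8. Of all genes, 5.72%, 4.85%, 5.7% and 5.36% were higher in these settings, in the order named. DESeq2 called 19 higher (4 receptors, 7 modifiers, 2 targets) and 1 lower, and limma-voom with sample weights 20 higher (4 receptors, 8 modifiers, 2 targets) and 6 lower. Among all genes DESeq2 called 1894 higher and 1885 lower and limma-voom 3740 and 3805. Of the other pathway genes DESeq2 called 11 higher and 4 lower, limma-voom 16 and 7, and edgeR without a filter 1 lower.

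Leaving out each library, edgeR called 0 to 21 of the 35 higher and 0 to 5 lower, with ligands 0 to 6, receptors 0 to 4, modifiers 0 to 9 and targets 0 to 2 higher. The upper values came without sham replicate 1, and the other 5 settings gave 0. Among all genes it called 0 to 3750 higher and 0 to 3647 lower, and of the other pathway genes 0 to 16 and 0 to 6. The settings with 0 calls had 3026 to 3440 genes at an unadjusted p under 0.05. DESeq2 in the same settings called 9 to 20 higher (14 without injured replicate 1) and 0 to 5 lower, with ligands 5 to 6, receptors 1 to 4 (2 without sham replicates 2 and 3 and injured replicate 2, 3 without injured replicate 1), modifiers 2 to 8 (5 without injured replicate 1) and targets 1 to 2 higher. Among all genes it called 883 to 3642 higher and 786 to 3395 lower (932 and 929 lower without sham replicates 2 and 3). Of the other pathway genes it called 5 to 15 higher and 2 to 6 lower (4 lower without injured replicate 3). The median log2 fold change of the 35 genes was 0.44 with limma-voom and 0.31 to 0.42 in edgeR when libraries were left out. DESeq2 medians were over 36 genes, since they took in her2, so they are not of the same set. They were 0.26 to 0.42 when libraries were left out (0.28 and 0.27 without sham replicates 2 and 3).

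Signs changed for 1 class median and 4 genes, none of which edgeR or DESeq2 called with all libraries (limma-voom with sample weights called nrarpb lower, at -0.36). The target median ranged from -0.14 to 0.041 in edgeR when libraries were left out, positive without sham replicate 2. her8a ranged from -0.36 to 0.096 and nrarpb from -0.32 to 0.075, both positive without sham replicate 2, where DESeq2 gave 0.098 and 0.076. her15.1 ranged from -0.17 to 0.41, and was -0.11, -0.17 and -0.16 without sham replicates 2 and 3 and injured replicate 1 (DESeq2 gave -0.11 and -0.17 without those sham libraries). hey1 ranged from -0.069 to 0.19, negative without sham replicate 1, where DESeq2 gave -0.065, and was -0.082 with limma-voom. Depth limits her4.2 and her15.1, at no more than 31 reads in a library.

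With the replicate number as a block (replicate block), edgeR called 0 of the 35 genes, 0 of each class, 0 of all genes and 0 of the other pathway genes, with 19 of the 35 and 4322 of all genes at an unadjusted p under 0.05. Libraries of the same number did not deviate together (correlations -0.16, -0.026 and 0.067), so the numbers were not taken as pairs.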
